A study of Mus musculus with 6 samples.

Results

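Guanylate-binding proteins are large GTPases that interferon switches on in many cell types. They were examined in primary mouse renal fibroblasts, the matrix-producing cells of the kidney, as 10 genes, Gbp2 to Gbp11. Members were taken by symbol from the deposited table of fragment counts, where they held 11 of the 34745 rows because Gbp6 stood on 2 rows. Wild-type fibroblasts were left for 6 h to attach and were then either kept alone (lone group, 3 libraries) or cocultured for 24 h beneath a transwell insert with 0.4 µm pores that carried Th17 cells (cocultured group, 3 libraries). Th17 cells are helper T cells that make interleukin-17. They had been induced in culture from mouse spleen CD4+ T cells on antibodies to CD3 and CD28, with interleukins 1β, 6 and 23 and with an antibody that neutralises interferon gamma. Only the fibroblasts below the insert were collected, so the cell types shared medium but no surface. For the lone wells, the study's methods describe neither the time in culture nor an empty insert. Any such difference cannot be told apart from the presence of Th17 cells. The study's methods name Balb/c mice, without tying that strain to the fibroblasts, and the sources read do not tie the 3 libraries of either group to different wells, cultures or mice. Errors and p-values therefore measure only the spread among these libraries, which may be technical.

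Guanylate-binding proteins belong to the dynamin superfamily and bind guanine nucleotides. Interferon gamma is their classical inducer: its signal passes through the kinases JAK1 and JAK2 and the transcription factor IRF1, while that of type I interferon passes through factors that include STAT2 and IRF9. The proteins gather on the vacuoles that enclose intracellular parasites and bacteria, and they promote inflammasome activation. Some members, Gbp2 and Gbp5 among them, end in a motif to which a lipid is attached by prenylation. In the mouse the genes lie in clusters on chromosomes 3 and 5. The immunity-related GTPases are a further family of interferon-induced GTPases that work on the same vacuoles.

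The promoters of the chromosome 3 members are shown first, because the interferon pathway acts on such DNA. RefSeq promoter windows, which run from 250 bases before to 50 bases after a gene start on build GRCm38.p6, were at hand for 4 of the 10 members, and all lie on the plus strand. The windows printed are those of Gbp5 at chr3:142496684-142496983, Gbp7 at chr3:142530086-142530385, Gbp3 at chr3:142559794-142560093 and Gbp2 at chr3:142620413-142620712. The Gbp5 window belongs to a RefSeq start that lies inside the span of the deposited Gbp5 row, which begins at 142493978. Capitals mark matches, on either strand, to the core of the interferon-stimulated response element (ISRE: GAAA, any 2 bases, GAAA, which reads TTTC, any 2 bases, TTTC on the other strand) and to the interferon gamma-activated site (GAS, TTCNNNGAA).
Gbp5: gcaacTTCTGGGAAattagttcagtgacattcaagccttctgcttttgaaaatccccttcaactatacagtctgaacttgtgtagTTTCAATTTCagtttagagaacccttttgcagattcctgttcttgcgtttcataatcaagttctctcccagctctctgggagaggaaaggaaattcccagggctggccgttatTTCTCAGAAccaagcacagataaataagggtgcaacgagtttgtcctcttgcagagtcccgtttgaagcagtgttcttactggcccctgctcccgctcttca
Gbp7: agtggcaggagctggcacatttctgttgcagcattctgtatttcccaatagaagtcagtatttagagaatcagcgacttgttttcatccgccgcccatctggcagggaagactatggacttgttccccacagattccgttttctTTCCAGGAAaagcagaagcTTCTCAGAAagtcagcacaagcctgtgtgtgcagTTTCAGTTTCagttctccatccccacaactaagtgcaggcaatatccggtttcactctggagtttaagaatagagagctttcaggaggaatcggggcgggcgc
Gbp3: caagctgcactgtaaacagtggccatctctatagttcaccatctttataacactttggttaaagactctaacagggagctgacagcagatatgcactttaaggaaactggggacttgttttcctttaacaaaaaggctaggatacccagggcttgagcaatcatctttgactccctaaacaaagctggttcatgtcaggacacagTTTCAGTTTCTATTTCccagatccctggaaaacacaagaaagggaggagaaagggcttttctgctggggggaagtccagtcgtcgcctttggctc
Gbp2: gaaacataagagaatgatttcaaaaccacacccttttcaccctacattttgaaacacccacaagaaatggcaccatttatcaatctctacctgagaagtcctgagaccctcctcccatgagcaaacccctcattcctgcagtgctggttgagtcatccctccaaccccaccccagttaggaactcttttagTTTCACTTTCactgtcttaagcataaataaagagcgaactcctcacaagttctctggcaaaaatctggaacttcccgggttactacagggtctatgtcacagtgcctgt
The ISRE core was present in all 4 windows, and Gbp3 held 2 matches that overlap, TTTCAGTTTC and TTTCTATTTC. It occurred in 3.44% of the 32851 promoter windows of the RefSeq table, and 3.99% of the 27025 genes there had a window with it. Gbp2 carried its match, TTTCACTTTC, with its first base at -59 relative to its RefSeq start, Gbp7 at -53 and Gbp3 at -45, whereas that of Gbp5 lay farther upstream, at -165. The GAS letters occurred 2 times each in Gbp5 and Gbp7 and were not found in the printed windows of Gbp3 and Gbp2. They were present in 8.3% of all windows, and 9.55% of the genes had a window with them. A second Gbp3 window, at chr3:142560106-142560405, held neither set of letters. These matches describe letters in a window and do not show that a factor was bound.

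All members were lower in the cocultured fibroblasts. Each of the 11 rows passed the filter on low counts, and in each row every cocultured library lay below every lone library. At the study's threshold, a fold change of more than 2 with adjusted p under 0.05, all 11 were called lower and 0 higher, where 7.78% of the 13088 genes tested were called lower and 3.87% higher. Groups that did not overlap, with the cocultured group lower, were seen in 26.1% of all genes tested. The median log2 fold change of the members was -2.57, a 5.94-fold lower level, with a range from -3.88 to -2.24, beside a median of 0 over all genes tested. Ranked from the lowest fold change upward, the members stood between places 94 and 309 of 13088. In bulk RNA, fewer cells of a type and less RNA per cell cannot be told apart.

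**Figure D1:**
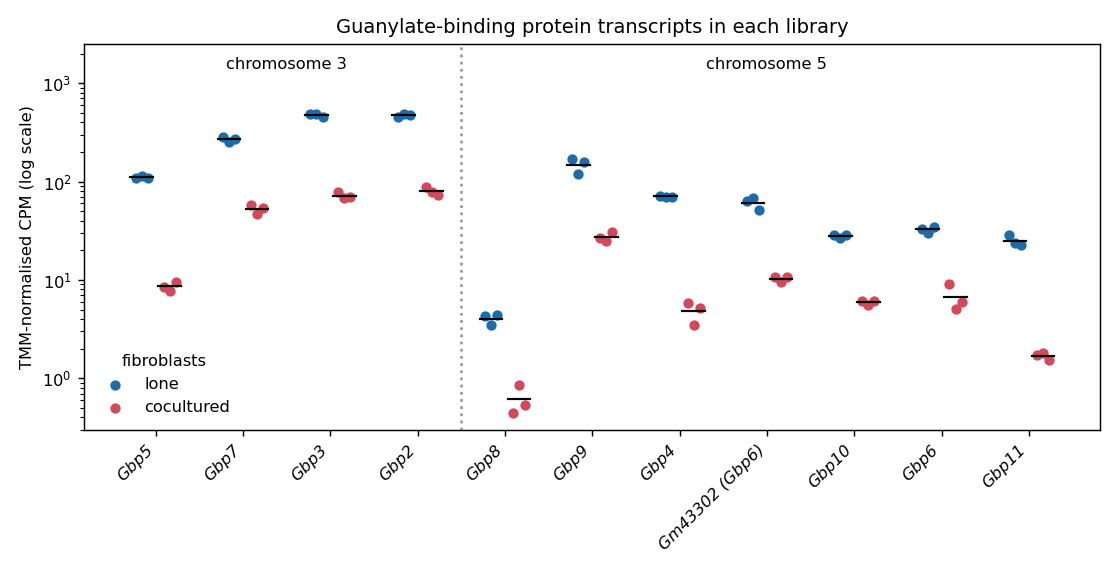
TMM-normalised CPM (fragment counts scaled to a common library total, log scale) of each member in each library, with lone fibroblasts in blue, cocultured fibroblasts in red, and a bar at the mean of the 3 libraries. Red and blue points do not overlap in any of the 11 rows; Gm43302 (Gbp6) is the second row that carries the name Gbp6.

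The chromosome 3 cluster holds Gbp5, Gbp7, Gbp3 and Gbp2, in that order along the plus strand (GRCm38), with the relative Gbp2b between Gbp3 and Gbp2. Gbp2 (chr3:142620602-142638008), which coats the vacuoles of intracellular parasites, had 5842, 6213 and 5619 counts in the lone libraries and 1182, 1007 and 953 in the cocultured ones. The cocultured libraries were all far below the lone ones, and the mean fell from 473 ± 18.8 to 79.8 ± 7.72 CPM (SD, n = 3). In the edgeR quasi-likelihood test its log2 fold change was -2.57, with an SE of 0.0814 and an adjusted p of 5.11e-08. Gbp3 (chr3:142560026-142573209) was as abundant in fragments, at 6281, 6155 and 5338 counts alone and 1048, 868 and 912 with Th17 cells. Its groups were equally well separated, from 475 ± 20.5 to 71.8 ± 5.31 CPM (SD, n = 3), a log2 fold change of -2.72 (edgeR: SE 0.0741 and adjusted p 3.39e-08).

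Gbp7 (chr3:142530342-142550149), linked in macrophages to the delivery of oxidase and autophagy proteins to bacterial vacuoles, had 3663, 3197 and 3235 counts alone and 773, 600 and 714 after coculture. Its fall was the smallest on chromosome 3, with a log2 fold change of -2.35 (edgeR: SE 0.0882 and adjusted p 1.26e-07) and means of 270 ± 16.1 and 53.0 ± 5.30 CPM (SD, n = 3). Gbp5 (chr3:142493978-142522344), a promoter of inflammasome assembly, had 1399, 1451 and 1293 counts alone but 114, 98 and 126 with Th17 cells. No other member of this cluster had its groups so far apart. Gbp5 fell from 111 ± 3.30 to 8.59 ± 0.948 CPM (SD, n = 3), a log2 fold change of -3.69 (edgeR: SE 0.0954 and adjusted p 2.47e-08). Its cocultured mean was 7.75% of its lone mean, where Gbp7 kept 19.6%, Gbp2 16.9% and Gbp3 15.1%.

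The chromosome 5 cluster, read on the minus strand, holds the remaining 7 rows. Gbp4 (chr5:105115767-105139586), reported in the mouse as a brake on the interferon factor IRF7, had 921, 891 and 830 counts in lone and 78, 44 and 68 in cocultured libraries. Lone libraries were nearly equal in CPM, at 70.7 ± 0.700, and cocultured ones lay at 4.81 ± 1.21 (SD, n = 3), a log2 fold change of -3.87 (edgeR: SE 0.150 and adjusted p 1.42e-07). Gbp11 (chr5:105323042-105346472), which GENCODE lists as a polymorphic pseudogene, had 366, 301 and 266 counts alone and 23, 23 and 20 in coculture. With a log2 fold change of -3.88 (edgeR: SE 0.160 and adjusted p 1.97e-07) it was level with Gbp4, at 24.9 ± 3.11 and 1.68 ± 0.145 CPM (SD, n = 3). Which of the pair was lower changed with the library left out. Gbp4 and Gbp11 kept 6.80% and 6.75% of their lone means. Their coding sequences are 90.4% identical, the closest pair outside the Gbp6 and Gbp10 rows, yet only 1.6% of the 100-base words of Gbp4 transcripts and 5.1% of those of Gbp11 also occur in another gene of the family.

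Gbp9 (chr5:105077630-105139539) varied most between lone libraries among the abundant members, with 2197, 1511 and 1860 counts, and had 355, 319 and 407 in coculture. The lone library with 1511 counts still lay far above all cocultured ones, and the mean went from 149 ± 26.5 to 27.5 ± 3.10 CPM (SD, n = 3), a log2 fold change of -2.44 (edgeR: SE 0.142 and adjusted p 1.64e-06). Gbp8 (chr5:105014150-105139540) was the member with the fewest fragments, 55, 44 and 52 alone and 6, 11 and 7 in coculture. Its fold change is accordingly the least precise, at -2.71 on the log2 scale (edgeR: SE 0.297 and adjusted p 0.000111), with means of 4.05 ± 0.499 and 0.614 ± 0.221 CPM (SD, n = 3), where 3 counts amount to between 0.223 and 0.254 CPM. The 5′ exons of Gbp8, Gbp9 and Gbp4 share between 60 and 61 bases on the same strand, at most 1.8% of the exon bases of any of them.

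Gbp6 and Gbp10 are near-identical neighbours, and the deposited table gives them 3 rows. One row, named Gbp6 in the table and Gm43302 in GENCODE (chr5:105214907-105293695), spans both loci: it shares 1792 exon bases with Gbp10 and 1726 with Gbp6. Over their coding sequences Gm43302 and Gbp6 are 99.9% identical and Gbp10 and Gbp6 98.4%. The stretch below, coding bases 1556 to 1645, is the 90-base stretch where Gbp10 and Gbp6 differ most, with capitals at the 12 bases that differ.
Gbp10: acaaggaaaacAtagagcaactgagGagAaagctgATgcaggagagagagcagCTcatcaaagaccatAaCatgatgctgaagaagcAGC
Gbp6: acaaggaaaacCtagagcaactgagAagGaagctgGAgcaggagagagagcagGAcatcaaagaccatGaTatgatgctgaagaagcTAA
Even there most letters are the same, and across the transcripts 98.8% of the 100-base words of Gm43302, 73.5% of those of Gbp10 and 64.5% of those of Gbp6 recur in another gene of the family. How fragments that match several genes were assigned is not stated in the sources read, so the division of counts among these 3 rows is uncertain. As deposited, Gbp10 (chr5:105215699-105239533) had 373, 337 and 338 counts alone and 82, 70 and 81 in coculture, a log2 fold change of -2.24 (edgeR: SE 0.110 and adjusted p 5.55e-07). The Gbp6 row at chr5:105270702-105293698 had 424, 383 and 408 counts alone and 122, 65 and 79 in coculture, a log2 fold change of -2.27 (edgeR: SE 0.187 and adjusted p 1.66e-05). The spanning Gm43302 row went from 815, 863 and 609 counts to 142, 120 and 142, a log2 fold change of -2.57 (edgeR: SE 0.125 and adjusted p 5.51e-07). None of the 3 rows had overlapping groups.

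Sums over similar rows do not depend on how fragments were divided within a sum, although fragments that were dropped, counted in several rows or shared across sums would still affect them. The Gbp6, Gbp10 and Gm43302 rows together held 1612, 1583 and 1355 counts in lone and 346, 255 and 302 in cocultured libraries, a log2 fold change of -2.41 (SE 0.0994). Gbp4, Gbp8, Gbp9 and Gbp11, which share exon bases or are at least 90% identical in coding sequence to one another in a chain, summed to 3539, 2747 and 3008 counts alone and 462, 397 and 502 in coculture (log2 fold change -2.85, SE 0.110). All chromosome 3 members together changed by -2.64 (SE 0.0677) and all chromosome 5 members by -2.69 (SE 0.0917) on the log2 scale. The family as a whole went from 22336, 21346 and 19848 counts to 3925, 3225 and 3509, a 6.28-fold lower sum. The summed values were computed after the fit over single genes and carry no p.

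Gbp2b is not among the 10 symbols but belongs to the family, and its coding sequence is 82.5% identical to that of Gbp2. It had 5994, 5888 and 5275 counts alone and 872, 755 and 736 in coculture, with a log2 fold change of -2.93 (edgeR: SE 0.0719 and adjusted p 2.08e-08). The pseudogene Gbp2-ps had 0 counts in all 6 libraries.

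Levels of different genes can be compared only per length, and the deposited FPKM values (fragment counts scaled to gene length and library total) use a length that was worked out here from the values. For all 11 rows it equals the sum of the lengths of all distinct annotated exons, so exons of different isoforms that overlap are counted repeatedly. For Gbp3 that gives 6064 bases, where its merged exons cover 3265, and for Gbp9 9523 against 5173. Both scales are therefore given.

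On the deposited FPKM scale Gbp2 had the highest level in lone fibroblasts, at 164 ± 6.72, followed by Gbp3 at 76.6 ± 3.09 and Gbp7 at 40.4 ± 2.39 (SD, n = 3). Gbp9 followed at 15.3 ± 2.72, Gm43302 at 13.8 ± 1.91 and Gbp5 at 10.8 ± 0.322. The lower levels were 7.96 ± 0.972 for Gbp11, 7.77 ± 0.0573 for Gbp4, 6.48 ± 0.290 for Gbp10, 3.59 ± 0.242 for Gbp6 and 0.730 ± 0.0906 for Gbp8. Libraries of neighbours in this order overlapped for Gbp9 and Gm43302 and for Gbp11 and Gbp4. Per kilobase of merged exons the top of the order was unchanged, but Gbp3 moved up to 142 ± 5.73 beside 184 ± 7.55 for Gbp2, and Gbp5, at 16.3 ± 0.485, passed Gm43302.

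After coculture the leading members kept their places, with deposited FPKM levels of 28.8 ± 2.73 for Gbp2, 12.1 ± 0.910 for Gbp3, 8.28 ± 0.864 for Gbp7, 2.95 ± 0.351 for Gbp9 and 2.43 ± 0.189 for Gm43302 (SD, n = 3). Gbp5, at 0.879 ± 0.103, now stood below Gbp10 at 1.43 ± 0.0967 and overlapped with Gbp6 at 0.775 ± 0.240. Gbp11 at 0.561 ± 0.0450 overlapped with Gbp6 and with Gbp4 at 0.553 ± 0.141, and Gbp8 was lowest at 0.116 ± 0.0408. With the merged exon length Gbp10 and Gbp5 also overlapped.

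**Figure D2:**
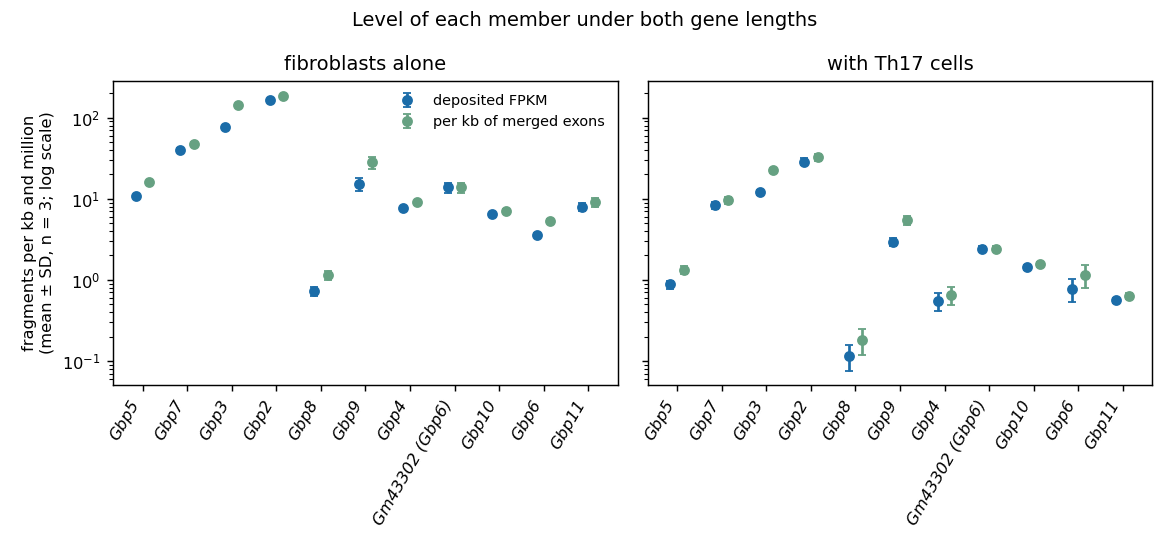
Level of each member on a length-scaled FPKM axis (mean ± SD of 3 libraries, log scale), lone at left and cocultured at right, from the deposited FPKM (blue) and per kilobase of merged exons (green). Gbp2, Gbp3 and Gbp7 lead on both scales in both groups, and Gbp3 and Gbp9 move most between the scales.

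The make-up of the family followed from these levels. Summed over the 11 rows, deposited FPKM was 347 ± 3.17 in lone and 58.9 ± 4.37 in cocultured fibroblasts (SD, n = 3). Gbp2 made up 47.1% of the sum alone and 48.9% in coculture, or 39.7% and 41.6% per kilobase of merged exons. The chromosome 3 members together made up 84.0% and 85.0% of the deposited sum. Libraries of the groups overlapped for Gbp2 and for the chromosome 3 members. Gbp5 made up 3.05%, 3.20% and 3.12% in the lone libraries and 1.36%, 1.40% and 1.73% in the cocultured ones. Gbp4 had 2.25%, 2.21% and 2.25% alone and 1.04%, 0.706% and 1.05% in coculture, and Gbp11 2.61%, 2.17% and 2.10% alone and 0.894%, 1.07% and 0.898% in coculture. These 3 members, with the lowest fold changes in the edgeR fit, were singled out after their values were seen, so their smaller shares are a description. Gbp7 went the other way, from a mean of 11.6% to 14.0%, and Gbp10 from 1.87% to 2.43%, again without overlap between groups. Both were likewise picked after their values were seen. The share of Gbp10 also rests on the uncertain division of counts with Gbp6 and Gm43302.

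Beside the clusters no gene outside the family was called lower. With 10 tested, 0 is near the share of all genes tested called lower, 7.78%. Of 11 other protein-coding genes within 500 kb of a member, 10 were tested and 0 were past the threshold in either direction, beside 11.6% of all genes tested. By adjusted p alone, where 20.0% of all genes tested were lower and 17.1% higher, 0 of the 10 were lower and 2 were higher: Bmpr1b, a receptor for bone morphogenetic proteins, at a log2 fold change of 0.59 (SE 0.136), and the cytoskeletal protein gene Pdlim5 at 0.40 (SE 0.0670). Both lie before Gbp5 on chromosome 3. At an unadjusted p under 0.05 edgeR counted 1 lower and 5 higher, and DESeq2 and limma on log2(FPKM + 1) also put 0 past the threshold. Gtf2b, a general transcription factor beyond Gbp2, had 0.22 (SE 0.0939), and the kinase gene Pkn2 -0.19 (SE 0.0726). Beyond Gbp11 on chromosome 5, the channel subunit genes Lrrc8b and Lrrc8c had 0.24 (SE 0.0987) and -0.10 (SE 0.0596), and Lrrc8d 0.86 with an SE of 0.791. Lrrc8d had 39, 280 and 126 counts alone and 45, 537 and 258 in coculture, a wide spread with the same order by library number in both groups. The median of the 10 neighbours tested was 0.23.

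**Figure D3:**
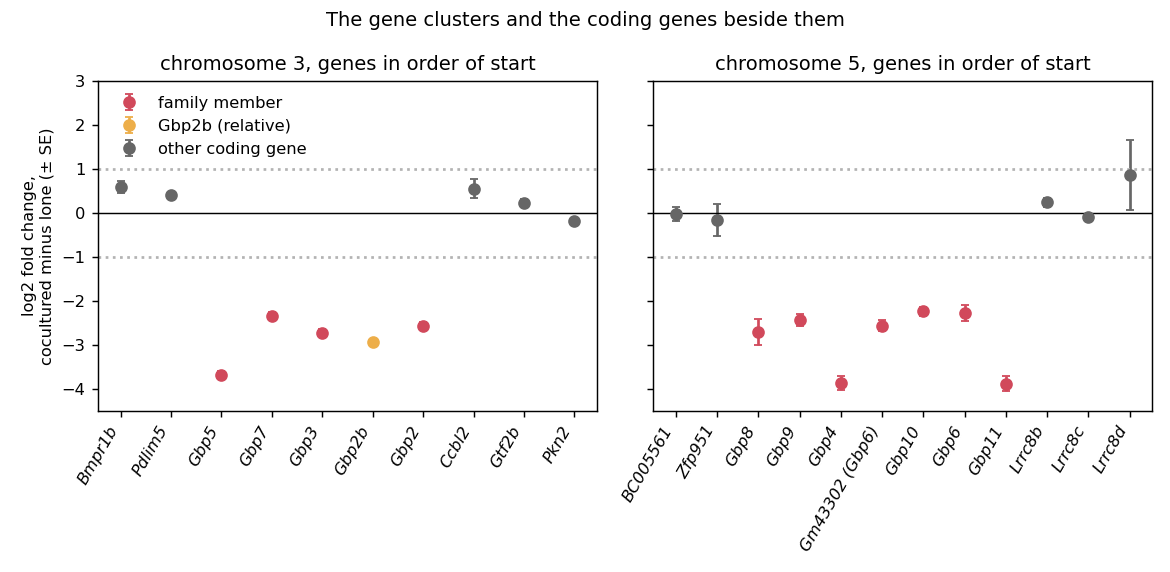
Log2 fold change of cocultured minus lone fibroblasts (points, with SE bars) for the tested coding genes of both clusters and within 500 kb, in order of gene start and not to scale; dotted lines mark a fold change of 2. The 11 rows of the family (red) and Gbp2b (orange) lie between -3.88 and -2.24, and the other genes (grey) lie between -0.19 and 0.86.

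The genes of the pathway that induces the family were mixed. Of the 12 tested genes of this list reported here, 2 were past the threshold, both lower. Over all genes tested 7.78% were called lower and 3.87% higher, and by adjusted p alone 20.0% and 17.1%. Irf1 had 533, 542 and 521 counts alone and 239, 169 and 172 in coculture, a log2 fold change of -1.54 (SE 0.126), and Stat2 had 5719, 5725 and 5252 alone and 2622, 2351 and 2155 in coculture, a log2 fold change of -1.30 (SE 0.0718). Irf9 at -0.59 and the type I receptor chain gene Ifnar2 at -0.74 were lower by adjusted p but under the fold limit. Ifngr2, a chain of the interferon gamma receptor, was higher by adjusted p at 0.99, and so was the feedback inhibitor gene Socs1 at 0.70, both under the fold limit. Ifngr1, Ifnar1, Jak1 and Jak2 did not pass the test and lay between -0.11 and -0.01. Interferon gamma itself had 0 counts in all libraries and Ifnb1 between 0 and 6. The median of the 12 was -0.09.

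The immunity-related GTPases fell as well. All 8 of those tested were called lower and 0 higher, where 7.78% of all genes tested were called lower and 3.87% higher. Their median was -2.80, beside the -2.57 of the guanylate-binding proteins. They ran from Irgm1, which regulates others of its family, at -1.08 (SE 0.0598) to Iigp1 at -3.89 (SE 0.0932). Tgtp1 and Tgtp2, a pair of near-identical copies whose division of counts is uncertain, had -3.34 and -2.99. The ninth gene of the list, Gm12250, is not analysed here. Of 12 other GTPases of the dynamin superfamily, 2 were past the threshold, both lower, and these were the interferon-induced antiviral genes Mx1 at -5.48 (SE 0.140) and Mx2 at -2.49 (SE 0.0856). Dynamins and mitochondrial fusion genes went otherwise: Dnm1, Dnm2, Dnm3, Mfn1, Mfn2 and Opa1 were higher by adjusted p, between 0.29 and 0.81, under the fold limit. By adjusted p alone 17.1% of all genes tested were higher.

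Partners of the proteins changed less uniformly. Of 8 tested inflammasome genes 4 were past the threshold, all lower, where 7.78% of all genes tested were called lower and 3.87% higher. Casp4, the caspase that senses bacterial lipopolysaccharide in the cytosol, had -1.32. The nucleic acid sensor gene Zbp1 had -1.27, Il18 -1.93 and Il1b -4.51. Il1b rested on 70, 65 and 68 counts alone and 4, 0 and 5 in coculture, and Il18 on 14, 17 and 17 alone and 5, 3 and 5 in coculture. Casp1, Pycard and Nlrc4 had too few counts to be tested. Gsdmd, the pore-forming gasdermin, was lower at -0.65, under the fold limit. Of 12 genes for vacuole targeting and ubiquitin-like conjugation, 1 was called lower and 1 higher, near the shares of all genes tested, 7.78% and 3.87%. Trim21, an interferon-induced ubiquitin ligase, was the lower one, with 948, 986 and 919 counts alone and 244, 279 and 225 in coculture. The autophagy gene Atg7 was the higher one, at 1.16. By adjusted p alone 1 of the 12 was lower and 4 were higher, beside 20.0% and 17.1% of all genes tested. Their median was 0.14. Of the 7 prenylation genes 0 passed the edgeR test, where 20.0% of all genes tested were lower and 17.1% higher by adjusted p. At an unadjusted p under 0.05 there were 0 as well, with values between -0.15 and 0.41. DESeq2 and limma on log2(FPKM + 1) also called 0, the latter with 1 at an unadjusted p under 0.05.

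**Figure D4:**
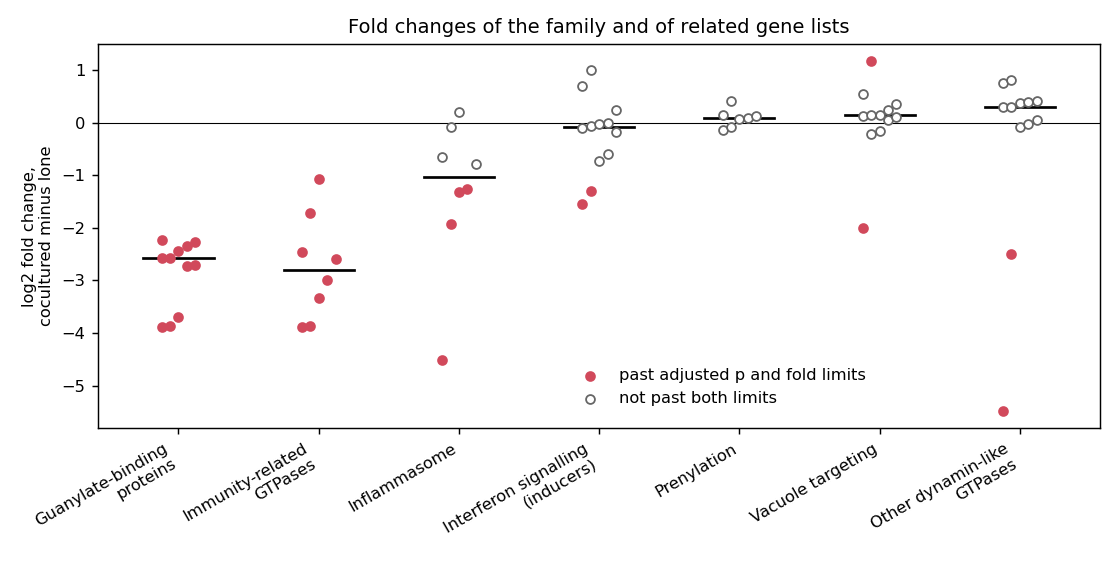
Log2 fold change of each tested gene by list, with a bar at the list's median; red points pass both the adjusted p of 0.05 and the fold change of 2, open points do not. The guanylate-binding proteins and the immunity-related GTPases lie wholly below 0, and of the other dynamin-like GTPases only Mx1 and Mx2 are red.

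The 5 genes outside the 10 symbols whose profile over the 6 libraries was nearest to the family's mean profile were Hap1, Uba7, F830016B08Rik, Mpzl2 and Gbp2b, among 10027 candidates. Likeness was the root mean square difference in centred log2 CPM, 0.067 for Hap1 and 0.090 for Gbp2b, and it is a description with no test. Among the members it ran from 0.067 for Gbp3 to 0.556 for Gbp4. Uba7 encodes the enzyme that activates the interferon-induced ubiquitin-like protein ISG15, and its log2 fold change was -2.74 (SE 0.0960).

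Depth was similar in all libraries, with totals between 12050529 and 13209581 counts. Fibroblast markers were high in both groups, with a summed level of 29754 to 31613 CPM alone and 13419 to 14904 CPM in coculture. Most of that sum was collagen: Col1a1 went from 15072 ± 731 to 6228 ± 490 CPM and Col1a2 from 12462 ± 328 to 4621 ± 228 CPM (SD, n = 3). By adjusted p alone 8 of the 10 were lower, against 20.0% of all genes tested. Past the fold limit as well, 3 of the 10 were called lower, against 7.78% of all genes tested. Pdgfra, Pdgfrb, Thy1 and Vim were between 1.27-fold and 1.44-fold lower, and Fap 1.62-fold. Dcn, which encodes the proteoglycan decorin, was past the threshold in the other direction, 2.83-fold higher. Macrophages also express guanylate-binding proteins, and their 17 markers summed to 63.0 to 68.0 CPM alone and 20.4 to 21.8 CPM in coculture. In the lone libraries Gbp2 by itself lay between 453 and 491 CPM, and neither level gives the share of macrophages or their Gbp2 content. Of the 8 macrophage markers tested 6 were past the threshold, all lower, where 7.78% of all genes tested were called lower. Lyz2, the largest of the markers alone, went from 27.6 ± 0.944 to 3.33 ± 0.392 CPM (SD, n = 3), a log2 fold change of -3.05 (SE 0.127). Adgre1, which encodes F4/80, had 71, 47 and 55 counts alone and 0 in each cocultured library, and Ptprc had 14, 12 and 11 alone and 0 in coculture. Cd14, with a log2 fold change of 0.00, had a mean of 11.2 CPM in both groups. It was the largest single part of the cocultured sum, so that sum understates the fall of the other markers. The part of macrophages in the fall of the family was not tested. Of the T cell markers Cd3d, Il17a and Il17f were at 0 in all libraries, and the summed T cell level was 4.27 to 5.53 CPM alone and 2.21 to 2.67 CPM in coculture, with 1 marker tested, Lck, lower at -1.04. Endothelial markers summed to 6.79 to 7.52 CPM alone and 1.60 to 2.75 CPM in coculture, with Emcn at 0 and 1 of 2 tested markers, Kdr, lower, and epithelial markers to 1.40 to 2.69 and 0.837 to 1.18 CPM, with 0 of 1 called.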

How the data were processed

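Reads were filtered by the authors with Seqtk, then aligned to mouse build mm10 (HISAT2 2.0.4) and summarised per gene (StringTie 1.3.3b), per the methods and the submitters' processing notes. They deposited a raw count and an FPKM value for each gene and library. Strand setting and the treatment of fragments that match several genes are not given in the sources used here.

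Counts were fitted in R 4.3.3 with edgeR 4.0.16 (TMM, filterByExpr with minimum count 10, glmQLFit and glmQLFTest), with Benjamini-Hochberg adjustment over 13088 genes. SE is the log2 fold change divided by the square root of F. Calls needed a fold change of more than 2 with adjusted p under 0.05, the study's limits. The biological coefficient of variation was 11.6%. Errors from counts cover counting and library spread only, because no molecular identifiers separate PCR copies. The fit was tested on simulated data. GENCODE M21 (GRCm38, the assembly mm10 names) positions equal the deposited ones for the family.

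Members and lists were chosen with earlier results of these data known, and 1 gene of the list of inducers is not reported here. Named genes are the members, list genes, other Gbp rows, neighbours within 500 kb and the 5 most similar profiles (higher group mean 100 counts or more). Alternatives were other scalings, filters, DESeq2 1.42.0, limma 3.58.1 on log2(FPKM + 1), a replicate block, leaving out each library, other fold limits and summed rows; sums by overlap or coding identity and merged exon lengths were added after seeing the data.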

Additional observations from a re-analysis of the deposited data

How the results depend on the processing

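All 11 rows stayed lower, and 0 became higher, under every alternative scaling, DESeq2, no filter, no fold limit, glmTreat, the replicate block and the omission of any 1 library. With at least 10 counts in every library Gbp8 was not tested and 10 were called. With limma on log2(FPKM + 1), whose added 1 shrinks the change of low genes, 10 were called, the median was -2.16 and Gbp8 had -0.63. Without lone replicate 3 the median was -2.65, and over all single omissions it ran from -2.65 to -2.56. Over all genes tested, same-numbered libraries did not deviate together (correlations 0.016, -0.026 and -0.004). Differently numbered ones did not either (-0.04 to 0.046), so this check cannot tell whether the numbers pair the samples. The replicate block gave a median of -2.57 and 11 calls. Summing by chromosome, at -2.64 and -2.69, moved 7 members by over their spread, which follows from the sum. The planned sum by protein identity was not run, since no protein sequences were at hand. Counting depth limits Gbp8 most.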
